A study of Mus musculus with 12 samples.

Results

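The genes described here are those of the mouse mitochondrial genome. They were taken as every row of the count files whose Entrez Gene identifier is annotated to chromosome MT. Of 37 annotated mitochondrial genes, 15 had a row among the 27179 genes of the files: 13 protein-coding genes and 2 ribosomal RNA (rRNA) genes. The 22 mitochondrial transfer RNA (tRNA) genes had none and are not analysed here. All 15 genes passed the filter on low counts, so every member with a row is in every test.

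The libraries came from sorted thymic epithelial cells of C57BL/6 mice, in 4 groups of 3 libraries. HOIL-deficient cells were Foxn1creT/+ HOILlox/lox, in which Cre is driven by Foxn1, a transcription factor of thymic epithelium; control cells were Foxn1cre+/+ Hoillox/lox and carried the same floxed allele without the Cre transgene. Cortical thymic epithelial cells (cTECs) were gated as EpCAM+ MHC class II+ Ly51+ UEA1-, and MHC class II-high medullary thymic epithelial cells (mTEChi) as EpCAM+ Ly51- UEA1+, all of them CD45- TER-119- CD31-. Replicate 3 of both HOIL-deficient groups was labelled female and the other 10 libraries male. No age was given in the sources used here, and the labels do not say whether replicates were separate mice, so every p-value below reflects how far these libraries scatter, and that scatter may be technical.

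Total counts ran from 7941217 to 14274333 per library. Rbck1, the gene of HOIL, averaged 15.3 ± 6.91 CPM (counts per 1000000 counts of the library) in HOIL-deficient mTEChi and 117 ± 10.3 CPM in control mTEChi. It averaged 25.9 ± 6.19 CPM in HOIL-deficient cTECs and 213 ± 27.4 CPM in control cTECs (SD, n = 3 each), so it was low in every group labelled HOIL-deficient. A list of mTEChi markers summed to 1566 to 2693 CPM in mTEChi libraries and 170 to 355 CPM in cTEC libraries. A list of cTEC markers summed to 2407 to 3688 CPM in mTEChi libraries and 18902 to 47321 CPM in cTEC libraries.

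The mitochondrial genome is a small circle present in many copies per cell and is transcribed from both strands into long precursors. Cutting at the tRNAs between the genes releases the rRNAs of the mitochondrial ribosome and messenger RNAs for core subunits of respiratory complexes I, III and IV and of ATP synthase, all other subunits being encoded in the nucleus. Most of these messengers receive a short poly(A) tail, which in several of them also completes the stop codon. The cDNA here was made with SMART-Seq v4, a kit that primes on poly(A) and does not record the strand.

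The genome is so compact that neighbouring genes share bases, and the pairs below show which levels can mix reads of both partners. The ends of mt-Atp8 (chrM:7915-7969, plus strand) and mt-Nd4l (chrM:10137-10173, plus strand) are given with the bases shared with mt-Atp6 and mt-Nd4 in capitals. The ends of mt-Nd5 (chrM:13522-13565, plus strand) and mt-Nd6 (chrM:13552-13595, minus strand) are given with the bases that each shares with the other, on opposite strands, in capitals. All are 5′ to 3′, from GENCODE M21 transcripts on GRCm38, the assembly that mm10 names.
mt-Atp8 end: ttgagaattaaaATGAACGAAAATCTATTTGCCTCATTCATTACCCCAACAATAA
mt-Nd4l end: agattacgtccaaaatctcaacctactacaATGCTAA
mt-Nd5 end: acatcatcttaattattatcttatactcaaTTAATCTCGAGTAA
mt-Nd6 end: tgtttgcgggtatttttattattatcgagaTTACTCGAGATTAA

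The shared stretches were 43 bases for mt-Atp8 and mt-Atp6, 7 bases for mt-Nd4l and mt-Nd4, and 14 bases for mt-Nd5 and mt-Nd6, and mt-Atp6 and mt-Co3 shared 1 base. How reads over a shared stretch were assigned is not given in the sources used here. mt-Nd6 is the only protein-coding member on the minus strand, so its own reads and antisense reads of the long plus-strand precursor cannot be told apart in these counts.

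The last 30 bases of mt-Co3 (chrM:9361-9390), mt-Nd4 (chrM:11515-11544) and mt-Cytb (chrM:15259-15288), all plus strand, show the genes that stop inside a codon. The capital marks the base left over after the last whole codon, where the added adenines of the poly(A) tail complete the stop.
mt-Co3 end: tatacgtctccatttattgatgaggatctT
mt-Nd4 end: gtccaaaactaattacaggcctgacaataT
mt-Cytb end: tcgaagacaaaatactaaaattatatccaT

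Mitochondrial transcripts were a smaller part of the counts in HOIL-deficient mTEChi than in control mTEChi, and not in HOIL-deficient cTECs against control cTECs. The 13 protein-coding genes made up 1.74% ± 0.0972 of counts in HOIL-deficient mTEChi and 5.05% ± 2.66 in control mTEChi. The 2 rRNA genes made up 0.101% ± 0.0158 in HOIL-deficient mTEChi and 0.439% ± 0.376 in control mTEChi (SD, n = 3 each). In cTECs the protein-coding genes took 1.39% ± 0.336 in HOIL-deficient and 1.08% ± 0.263 in control libraries, and the rRNA genes 0.0670% ± 0.0164 in HOIL-deficient and 0.0444% ± 0.0161 in control libraries. All 3 control mTEChi libraries lay above all 9 others for both classes, and replicate 1 of that group stood far above the other two. In bulk samples, fewer cells of a type and less RNA per cell cannot be told apart.

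The difference between the cell types was tested on the log2 scale. The HOIL effect on the share of the 15 genes was lower in mTEChi than in cTECs by a log2 value of -1.82 (exact permutation within cell types, 400 regroupings, two-sided p = 0.015). For the protein-coding genes alone this difference was -1.78 and for the rRNA genes alone -2.43, each with exact p = 0.015. Within mTEChi, the share of the 15 genes differed by -3.65 percentage points with exact p = 0.1, the smallest value that 3 libraries against 3 allow. Without replicate 1 of control mTEChi, the difference was -1.94 percentage points. In cTECs the share was 0.331 percentage points higher in HOIL-deficient libraries, with exact p = 0.4.

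**Figure D1:**
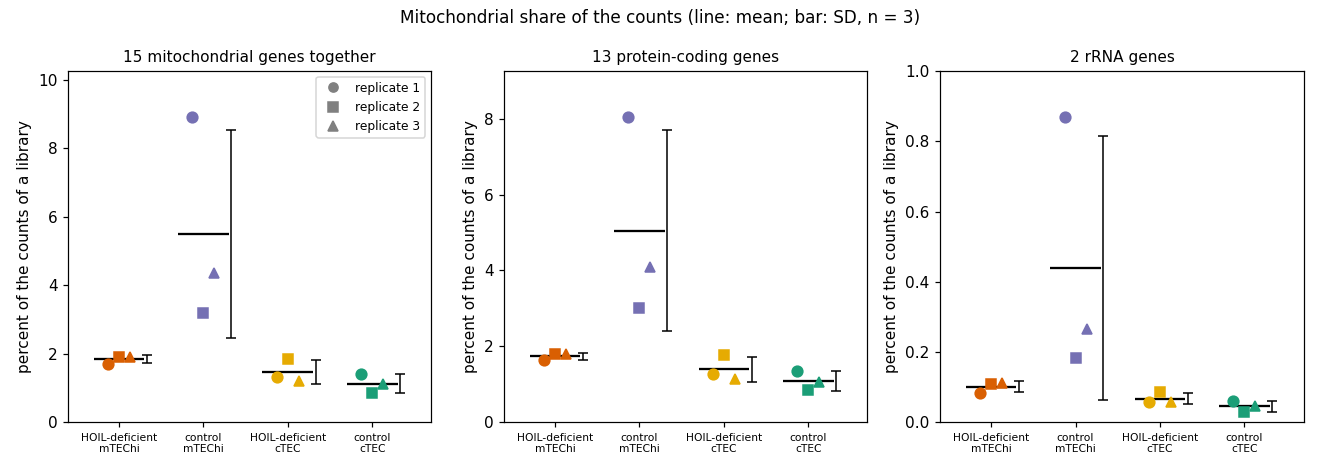
Share of library counts (y axis, percent) taken by the 15 mitochondrial genes, the 13 protein-coding genes and the 2 rRNA genes in each of the 12 libraries, with group mean and SD (n = 3). HOIL-deficient mTEChi lie together at 1.74% ± 0.0972 for the protein-coding genes, while control mTEChi average 5.05% ± 2.66 with replicate 1 highest; both cTEC groups lie near the HOIL-deficient mTEChi.

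Gene by gene, all 15 mitochondrial genes were lower in HOIL-deficient than in control mTEChi at an adjusted p under 0.05 (edgeR quasi-likelihood test, Benjamini-Hochberg over 19398 genes), where 8.59% of all genes tested were called lower. Their median log2 fold change was -1.76, with a range of -2.68 to -1.17, beside a median of -0.03 over all genes tested. Libraries of the groups did not overlap for 14 of the 15, against 20.6% of all genes that were lower without overlap. The exception was mt-Atp8. Without replicate 1 of control mTEChi, 13 genes were called and the median was -1.18, with mt-Atp8 and mt-Nd3 the genes that lost the call. In male libraries alone, 14 genes were called, all but mt-Atp8.

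The 2 rRNAs form the cores of the small and large mitochondrial ribosomal subunits. mt-Rnr1, the 12S rRNA (Entrez Gene 17724, chrM:70-1024), had 46.2, 61.7 and 89.1 CPM in HOIL-deficient mTEChi against 581, 121 and 183 CPM in control mTEChi. mt-Rnr2, the 16S rRNA (17725, chrM:1094-2675), had 786, 1018 and 1038 CPM in HOIL-deficient mTEChi against 8125, 1692 and 2475 CPM in control mTEChi. Both genes were highest in replicate 1 of control mTEChi, and the groups did not overlap. The log2 fold change of mt-Rnr1 was -2.29 (SE 0.512, edgeR adjusted p = 0.0082) and that of mt-Rnr2 -2.23 (SE 0.507, adjusted p = 0.0094). Without replicate 1 of control mTEChi they were -1.25 and -1.18.

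Complex I, the NADH dehydrogenase that feeds electrons into the respiratory chain, has 7 mitochondrially encoded subunits, which build its membrane arm. mt-Nd1 (17716, chrM:2751-3707) had 1217, 1444 and 1333 CPM in HOIL-deficient mTEChi against 5881, 2635 and 3360 CPM in control mTEChi. mt-Nd2 (17717, chrM:3914-4951) had 159, 206 and 248 CPM in HOIL-deficient mTEChi against 1499, 437 and 599 CPM in control mTEChi. The highest HOIL-deficient value of each lay below the lowest control value. mt-Nd1 changed by a log2 value of -1.66 (SE 0.303, edgeR adjusted p = 0.0025) and mt-Nd2 by -2.16 (SE 0.401, adjusted p = 0.0028).

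mt-Nd3 (17718, chrM:9459-9806), the smallest in counts of the complex I genes, had 6.12, 11.4 and 19.2 CPM in HOIL-deficient mTEChi against 91.4, 27.7 and 45.4 CPM in control mTEChi. These rest on 62 to 274 counts per HOIL-deficient mTEChi library. Its log2 fold change was -2.26 (SE 0.551, edgeR adjusted p = 0.012). The call was lost without replicate 1 of control mTEChi (-1.62, adjusted p = 0.0808) and without replicate 1 of HOIL-deficient mTEChi (-1.94, adjusted p = 0.0518).

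mt-Nd4l (17720, chrM:9877-10173) had 54.2, 55.9 and 66.3 CPM in HOIL-deficient mTEChi against 197, 98.7 and 116 CPM in control mTEChi. mt-Nd4 (17719, chrM:10167-11544), which follows it and shares the 7 bases printed above, had 709, 839 and 763 CPM in HOIL-deficient mTEChi against 4837, 1537 and 1967 CPM in control mTEChi. The pair lie next to each other on the precursor, yet the log2 fold change of mt-Nd4l was -1.31 (SE 0.282, edgeR adjusted p = 0.0060) and that of mt-Nd4 -1.96 (SE 0.375, adjusted p = 0.0033). The difference between the pair was not tested.

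mt-Nd5 (17721, chrM:11742-13565) had 393, 453 and 396 CPM in HOIL-deficient mTEChi against 2731, 986 and 1329 CPM in control mTEChi. mt-Nd6 (17722, chrM:13552-14070), on the opposite strand, had 88.9, 116 and 105 CPM in HOIL-deficient mTEChi against 1066, 337 and 444 CPM in control mTEChi. For both genes every control library was above every HOIL-deficient library. mt-Nd6 had the lowest fold change of the 15 genes, with a log2 value of -2.68 (SE 0.390, edgeR adjusted p = 0.00073), and mt-Nd5 changed by -2.12 (SE 0.347, adjusted p = 0.0014). Without replicate 1 of control mTEChi, mt-Nd6 was still lowest at -1.96.

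Complex III has 1 mitochondrial subunit, cytochrome b. mt-Cytb (17711, chrM:14145-15288) had 2479, 2968 and 2750 CPM in HOIL-deficient mTEChi against 11033, 4288 and 6020 CPM in control mTEChi. The groups did not overlap, and the log2 fold change was -1.48 (SE 0.315, edgeR adjusted p = 0.0058).

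Complex IV, the cytochrome c oxidase that reduces oxygen, has its 3 core subunits encoded here. mt-Co1 (17708, chrM:5328-6872) had 5105, 5189 and 5370 CPM in HOIL-deficient mTEChi against 27316, 9272 and 12866 CPM in control mTEChi. mt-Co2 (17709, chrM:7013-7696) had 1178, 1091 and 1362 CPM in HOIL-deficient mTEChi against 4632, 1948 and 2657 CPM in control mTEChi. mt-Co3 (17710, chrM:8607-9390) had 2952, 2958 and 3102 CPM in HOIL-deficient mTEChi against 12536, 5043 and 6594 CPM in control mTEChi. The HOIL-deficient libraries lay close together for all 3, below every control library. Their log2 fold changes were -1.76 for mt-Co1 (SE 0.352), -1.44 for mt-Co2 (SE 0.291) and -1.52 for mt-Co3 (SE 0.310), with edgeR adjusted p-values of 0.0042, 0.0044 and 0.0046 in that order.

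ATP synthase has 2 mitochondrial subunits, both in its membrane part. mt-Atp6 (17705, chrM:7927-8607), which forms the proton channel, had 1730, 2308 and 2222 CPM in HOIL-deficient mTEChi against 8019, 3273 and 4495 CPM in control mTEChi. mt-Atp8 (17706, chrM:7766-7969), a small subunit of the stalk, had 168, 267 and 200 CPM in HOIL-deficient mTEChi against 726, 247 and 355 CPM in control mTEChi. mt-Atp8 was the only member whose groups overlapped, replicate 2 of HOIL-deficient mTEChi lying above replicate 2 of control mTEChi. mt-Atp6 changed by a log2 value of -1.43 (SE 0.320, edgeR adjusted p = 0.0076) and mt-Atp8 by -1.17 (SE 0.369, adjusted p = 0.0396). The mt-Atp8 call was lost without any one of the HOIL-deficient mTEChi libraries, without replicate 1 of control mTEChi (-0.55, adjusted p = 0.26) and without replicate 3 of control cTECs.

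**Figure D2:**
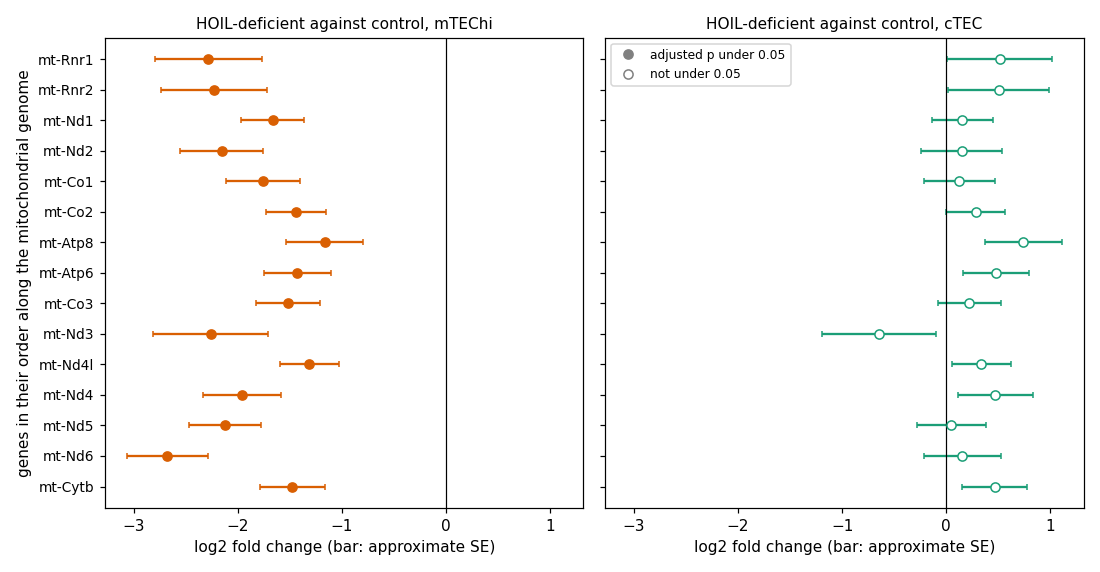
Log2 fold change of each of the 15 mitochondrial genes, HOIL-deficient against control, in mTEChi on the left and cTECs on the right, in genome order; points are edgeR estimates, bars an approximate SE, and filled points have an adjusted p under 0.05. All 15 points are filled and negative in mTEChi, between -2.68 and -1.17, and none is filled in cTECs.

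In cTECs no mitochondrial gene was called in either direction, where 12.1% of all genes tested were called. None of the 15 had an unadjusted edgeR p under 0.05, and DESeq2 also called 0. The median log2 fold change was 0.28 and 14 of the 15 values were positive. mt-Atp8 came closest, with 152, 266 and 162 CPM in HOIL-deficient cTECs against 139, 87.9 and 98.3 CPM in control cTECs, which edgeR put at a log2 change of 0.74 (SE 0.368) with an adjusted p of 0.21. Its groups did not overlap, and neither did those of mt-Nd4 and mt-Cytb, so 3 of 15 genes were higher without overlap, where 15.9% of all genes were. Values stood with replicate 2 of HOIL-deficient cTECs, the highest of its group for all 15 genes.

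Among the larger cTEC values, mt-Co1 had 3033, 4093 and 2705 CPM in HOIL-deficient cTECs against 3705, 2054 and 2710 CPM in control cTECs. mt-Cytb had 2023, 2962 and 1901 CPM in HOIL-deficient cTECs against 1888, 1200 and 1609 CPM in control cTECs. The first pair of groups overlapped and the second did not, and the log2 fold changes were 0.13 (SE 0.343, edgeR adjusted p = 0.90) and 0.46 (SE 0.309, adjusted p = 0.37). mt-Rnr2 had 538, 806 and 548 CPM in HOIL-deficient cTECs against 573, 265 and 415 CPM in control cTECs, and mt-Nd1 had 1179, 1748 and 994 CPM in HOIL-deficient cTECs against 1373, 915 and 1027 CPM in control cTECs. mt-Nd6 had 67.4, 132 and 88.8 CPM in HOIL-deficient cTECs against 87.9, 69.1 and 86.9 CPM in control cTECs. These 3 genes overlapped between the groups. mt-Nd3 was the only member with a negative value, -0.65 (SE 0.546, adjusted p = 0.50), and its control libraries ranged from 7.46 to 28.0 CPM.

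The HOIL effect in mTEChi differed from that in cTECs for 14 of the 15 genes in the edgeR interaction test, all of them lower in mTEChi, where 3.86% of all genes tested were lower. The median difference was -1.91 on the log2 scale. mt-Nd6 had the lowest value (-2.83, SE 0.531, adjusted p = 0.0069), followed by mt-Rnr1 (-2.80, adjusted p = 0.027) and mt-Rnr2 (-2.74, adjusted p = 0.028). mt-Nd3 did not pass (-1.61, SE 0.764, adjusted p = 0.19). The count of genes called ranged from 8 to 14 when each library was left out in turn, with 8 without replicate 1 of HOIL-deficient mTEChi and 9 without replicate 2 or replicate 3 of control cTECs. All 15 values were negative under every one of the 23 alternatives.

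In control cells, all 15 genes were higher in mTEChi than in cTECs (edgeR adjusted p between 1.6e-05 and 0.0057), where 37.8% of all genes tested were called higher. The median log2 fold change was 2.25, beside 0.24 over all genes tested; that median over all genes lay between 0.07 and 0.60 under the other settings, so the members stood well above it in each. mt-Rnr1 had 581, 121 and 183 CPM in control mTEChi against 31.8, 17.5 and 29.3 CPM in control cTECs, which edgeR put at 3.64 on the log2 scale (SE 0.546) with an adjusted p of 7.1e-05. mt-Rnr2 changed by 3.44 (SE 0.533, adjusted p = 0.00011) and mt-Nd6 by 3.06 (SE 0.397, adjusted p = 1.6e-05). mt-Nd1 had the smallest value of the 15 at 1.96 (SE 0.305, adjusted p = 8.1e-05). The groups did not overlap for 14 genes, where 39.6% of all genes were higher without overlap, and mt-Nd3 was the exception. Without replicate 1 of control mTEChi, mt-Nd3 lost the call (1.33, adjusted p = 0.0504), mt-Rnr2 was 2.38 and mt-Nd2 was 1.47 in place of 2.25.

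In HOIL-deficient cells, no mitochondrial gene was called between mTEChi and cTECs, where 48.4% of all genes tested were called. The median log2 fold change was 0.34, beside 0.19 over all genes tested. mt-Co1 was the only gene with an unadjusted p under 0.05 (edgeR log2 fold change 0.79, SE 0.345, adjusted p = 0.073), and the only one whose groups did not overlap, where 32.8% of all genes were higher without overlap. It had 5105, 5189 and 5370 CPM in HOIL-deficient mTEChi against 3033, 4093 and 2705 CPM in HOIL-deficient cTECs. DESeq2 called this gene, and a fit on these libraries alone called 4 genes, mt-Co1, mt-Co2, mt-Rnr1 and mt-Rnr2. Leaving out replicate 1 of control mTEChi called 2 genes, mt-Co1 and mt-Rnr1, and leaving out replicate 2 called mt-Co1. With a block by the letter that column headers share between cell types, chosen after seeing the data, edgeR called mt-Co1 (0.81, adjusted p = 0.0079) and mt-Rnr2 (0.72, adjusted p = 0.041) higher in HOIL-deficient mTEChi. The 2 comparisons of HOIL-deficient with control cells share their libraries with these comparisons of cell types.

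Levels were compared between genes per length, as reads per kilobase of gene, scaled like CPM (RPKM), computed from the counts and the deposited gene lengths. mt-Co3 was the highest of the 15 genes in 11 libraries and mt-Co1 in replicate 1 of control mTEChi. mt-Co3 averaged 3831 ± 108 RPKM in HOIL-deficient mTEChi and 10278 ± 5045 RPKM in control mTEChi, and 3361 ± 730 RPKM in HOIL-deficient cTECs and 2715 ± 667 RPKM in control cTECs. mt-Co1, mt-Co3, mt-Atp6 and mt-Cytb held the 4 highest means in every group, and mt-Nd3 was the lowest protein-coding gene in all 12 libraries, with 17.6 to 263 RPKM. The highest gene was thus 32.9-fold to 214-fold above mt-Nd3 within a library.

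The rRNA genes, the first on the plus strand, were not among the highest per length. mt-Rnr1 averaged 68.8 ± 22.8 RPKM in HOIL-deficient mTEChi, 309 ± 261 RPKM in control mTEChi, 41.8 ± 13.2 RPKM in HOIL-deficient cTECs and 27.4 ± 7.99 RPKM in control cTECs. mt-Rnr2 averaged 599 ± 88.4 RPKM in HOIL-deficient mTEChi, 2590 ± 2219 RPKM in control mTEChi, 399 ± 95.8 RPKM in HOIL-deficient cTECs and 264 ± 97.3 RPKM in control cTECs (SD, n = 3 each). mt-Rnr2 was thus above mt-Rnr1 per length in each group. What poly(A) priming contributes to the rRNA level was not tested.

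**Figure D3:**
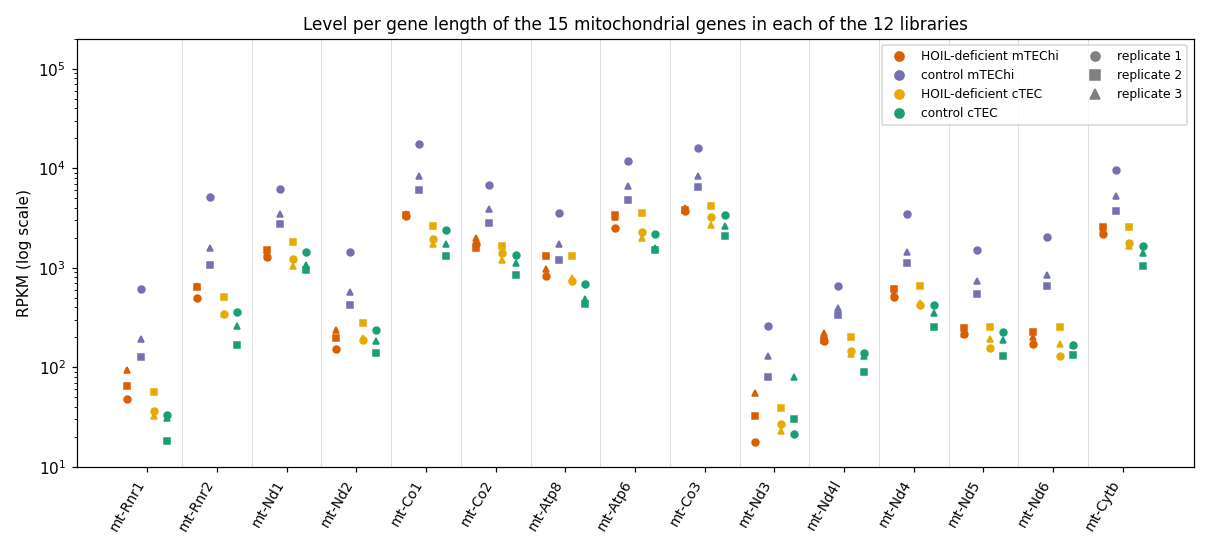
RPKM (y axis, log scale) of the 15 mitochondrial genes in genome order in each of the 12 libraries, coloured by group and shaped by replicate. The order of the genes is alike in the 4 groups, with mt-Co3 at the top in 11 libraries and mt-Nd3 the lowest protein-coding gene; control mTEChi lie above the other groups for most genes.

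The balance among the mitochondrial counts also differed between groups. Each of 8 measures of this balance was tested by genotype and by cell type with exact permutation within strata (400 regroupings, two-sided), and p-values were adjusted over the 16 tests. With no tRNA rows, the rRNA and protein-coding shares of the mitochondrial counts are complements, and both are among these measures. The rRNA genes took 4.88, 5.69 and 5.91% of mitochondrial counts in HOIL-deficient mTEChi and 9.75, 5.68 and 6.11% in control mTEChi. They took 4.33, 4.63 and 4.85% in HOIL-deficient cTECs and 4.27, 3.28 and 4.04% in control cTECs. Every mTEChi library was thus above every cTEC library, and the mean log2 ratio of mTEChi to cTECs was 0.56 (exact p = 0.005, adjusted p = 0.02). By genotype the mean log2 ratio was -0.04 (exact p = 0.83), and the HOIL effects of the cell types differed by -0.61 (exact p = 0.02). Such differences of HOIL effects were tested for all 8 measures, outside the 16 tests, and their p-values are not adjusted. The count ratio of mt-Rnr2 to mt-Rnr1 averaged 15.1 ± 2.96 in HOIL-deficient mTEChi, 13.8 ± 0.261 in control mTEChi, 16.1 ± 1.58 in HOIL-deficient cTECs and 15.8 ± 2.02 in control cTECs, and neither test of it passed.

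mt-Nd6 was counted 5.50, 6.54 and 5.91 times per 1000 counts of the 12 plus-strand protein-coding genes in HOIL-deficient mTEChi and 13.4, 11.3 and 10.99 times in control mTEChi. In cTECs it was counted 5.35, 7.53 and 7.88 times per 1000 in HOIL-deficient libraries and 6.52, 8.37 and 8.30 times in control libraries. The mTEChi groups did not overlap and the cTEC groups did. The mean log2 ratio of HOIL-deficient to control was -0.58 with exact p = 0.025 and an adjusted p of 0.05, which is not under the threshold, and the difference between cell types was -0.82 (exact p = 0.085). The adjusted p fell under the threshold without replicate 3 of HOIL-deficient cTECs (-0.63) and without replicate 1 of control cTECs (-0.64).

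Complex I genes made up 16.2, 17.5 and 16.3% of protein-coding counts in HOIL-deficient mTEChi and 20.2, 20.1 and 19.2% in control mTEChi. They made up 18.7, 20.3 and 20.2% in HOIL-deficient cTECs and 20.3, 21.1 and 20.9% in control cTECs. The share was lower in HOIL-deficient cells (mean log2 ratio -0.16, exact p = 0.01, adjusted p = 0.0267), without overlap in mTEChi and with overlap in cTECs. By cell type it was lower in mTEChi than in cTECs (mean log2 ratio -0.15, exact p = 0.005, adjusted p = 0.02). The log2 ratio of mTEChi to cTECs was -0.25 in HOIL-deficient and -0.063 in control cells. The cell-type call was lost with counts divided by gene length and in male libraries alone. mt-Cytb, the complex III gene, took a higher share in HOIL-deficient cells (mean log2 ratio 0.16, exact p = 0.005, adjusted p = 0.02). It took 15.7% ± 0.738 in HOIL-deficient mTEChi and 14.2% ± 0.521 in control mTEChi, and 16.5% ± 0.426 in HOIL-deficient cTECs and 14.5% ± 0.675 in control cTECs. The ATP synthase genes were likewise a higher share in HOIL-deficient cells (mean log2 ratio 0.20, exact p = 0.015, adjusted p = 0.0343), with 13.2% ± 1.37 in HOIL-deficient mTEChi and 11.5% ± 0.541 in control mTEChi, and 14.1% ± 0.927 in HOIL-deficient cTECs and 12.2% ± 1.06 in control cTECs. These shares and that of complex IV together make up all protein-coding counts, and mt-Nd6 is one of the complex I genes. A lower share of one class raises others, so these calls are not independent results.

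The complex IV genes were the largest class, with 54.4% ± 2.66 of protein-coding counts in HOIL-deficient mTEChi, 54.4% ± 0.671 in control mTEChi, 49.7% ± 1.96 in HOIL-deficient cTECs and 52.5% ± 1.27 in control cTECs (SD, n = 3 each). The genotype test did not pass (mean log2 ratio -0.04, adjusted p = 0.305 by exact permutation). By cell type the mean log2 ratio was 0.09 (exact p = 0.01, adjusted p = 0.0267), but 0.06 and above the threshold when counts were divided by gene length. Leaving out a library ended the genotype call of ATP synthase for any HOIL-deficient cTEC library, replicate 1 or 2 of control mTEChi and replicate 3 of control cTECs, and that of complex I for replicate 2 or 3 of control cTECs. The cell-type call of complex IV was lost without any HOIL-deficient cTEC library, replicate 1 or 2 of control mTEChi, or replicate 1 of HOIL-deficient mTEChi.

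**Figure D4:**
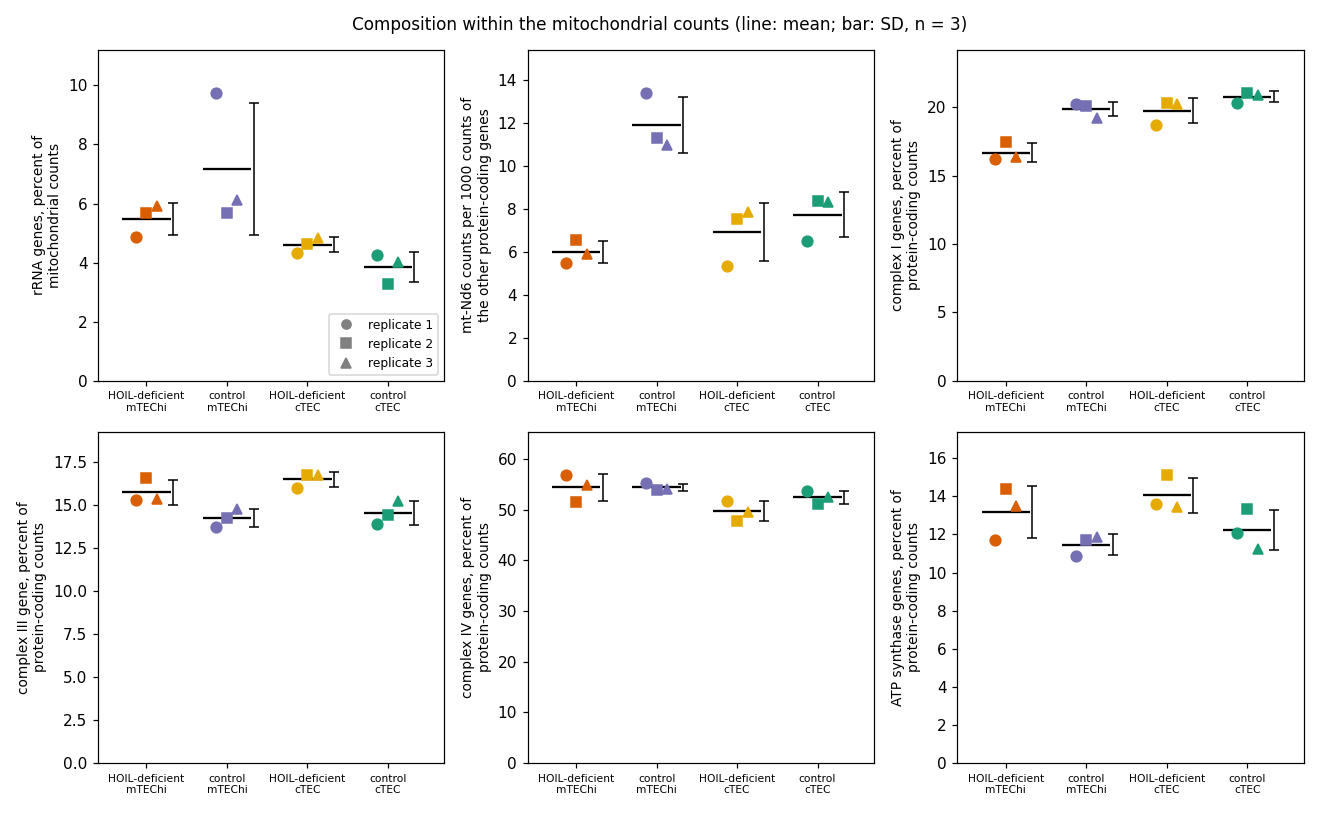
Balance within the mitochondrial counts in each library, with group mean and SD (n = 3): rRNA genes as percent of mitochondrial counts, mt-Nd6 per 1000 plus-strand protein-coding counts, and the genes of complexes I, III, IV and ATP synthase as percent of protein-coding counts. Complex I takes 16.2 to 17.5% in HOIL-deficient mTEChi and 19.2 to 20.2% in control mTEChi, and mt-Nd6 5.50 to 6.54 in HOIL-deficient mTEChi and 10.99 to 13.4 in control mTEChi.

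Pieces of the mitochondrial genome copied into the nucleus could draw reads from the members. A search of the nuclear transcripts of GENCODE M21 with blastn found a copy of at least 95% identity for 9 of the 15 genes. For 7 of them a copy reached 99%, all within a run of pseudogenes on chromosome 1 (Gm29216, Gm28661, Gm10925, Gm28437 and 3 others), and those of mt-Co2, mt-Atp6, mt-Co3, mt-Nd4l and mt-Nd4 were identical over the aligned bases. None of these copies had a row in the count files, and how reads matching several places were treated is not given in the sources used here. In mTEChi the 9 genes with such a copy were all lower in HOIL-deficient cells, with a median log2 fold change of -1.76. The 6 for which the search found none (mt-Rnr1, mt-Rnr2, mt-Nd1, mt-Atp8, mt-Nd6 and mt-Cytb) were also all lower, with a median of -1.95. Bases outside annotated transcripts were not searched. mt-Atp8 lies between mt-Co2 and mt-Atp6, whose identical copies lie at chr1:24614885-24615565 and chr1:24613974-24614651, and the bases between these copies were not searched. The part of nuclear copies in these levels was not tested.

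Some nuclear transcripts were also lower in HOIL-deficient mTEChi. Malat1, a long noncoding RNA kept in the nucleus, took 0.713, 0.858 and 0.983% of counts in HOIL-deficient mTEChi against 5.13, 3.29 and 3.97% in control mTEChi. Its log2 fold change was -2.36 (SE 0.251, edgeR adjusted p = 0.00016), and Neat1, another nuclear-retained RNA, changed by -1.96 (SE 0.309, adjusted p = 0.0011). In cTECs, where no mitochondrial gene was called, Malat1 took 0.526, 0.703 and 0.533% of counts in HOIL-deficient libraries against 0.853, 0.473 and 0.571% in control libraries, with overlap. Neat1 was lower in cTECs too, with 75.0 ± 20.7 CPM in HOIL-deficient cTECs and 156 ± 36.7 CPM in control cTECs (SD, n = 3 each), without overlap. Its log2 fold change in cTECs was -1.14 (SE 0.304, edgeR adjusted p = 0.027), and leaving out a library gave -1.34 to -0.95, with the call lost for replicate 2 or 3 of either cTEC group; it was also lost in male libraries alone. Of a list of noncoding RNAs taken as signs of RNA quality, 3 were tested: Malat1, Neat1 and Rn7sk. All 3 were lower in HOIL-deficient than in control mTEChi, where 8.59% of all genes were called lower. The call of Rn7sk there was lost under some alternatives. All 3 were also higher in control mTEChi than in control cTECs (median log2 fold change 2.71), where 37.8% of all genes were called higher. The part of these RNAs in the mitochondrial results was not tested.

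Lars2, the nuclear gene of the mitochondrial leucyl-tRNA synthetase, took 0.709, 0.665 and 0.795% of counts in HOIL-deficient mTEChi against 3.47, 1.48 and 1.85% in control mTEChi. It took 0.505, 0.614 and 0.581% in HOIL-deficient cTECs against 0.642, 0.429 and 0.499% in control cTECs. The mTEChi groups did not overlap and replicate 1 of control mTEChi was again highest. The log2 fold change of Lars2 in mTEChi was -1.75 (SE 0.282, edgeR adjusted p = 0.0013), the difference of the HOIL effects -1.77 (adjusted p = 0.014), and control mTEChi were above control cTECs by 2.24 (adjusted p = 1.4e-05). Lars2 made up most of the summed CPM of the mitochondrial tRNA synthetases and translation factors: without it, chosen after its level was seen, the other 30 genes of that list summed to 904, 873 and 840 CPM in HOIL-deficient mTEChi against 585, 725 and 687 CPM in control mTEChi. No genome sequence was used here to search the introns and the antisense strand of Lars2, so what part of the counts in its row comes from the synthetase messenger was not tested.

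**Figure D5:**
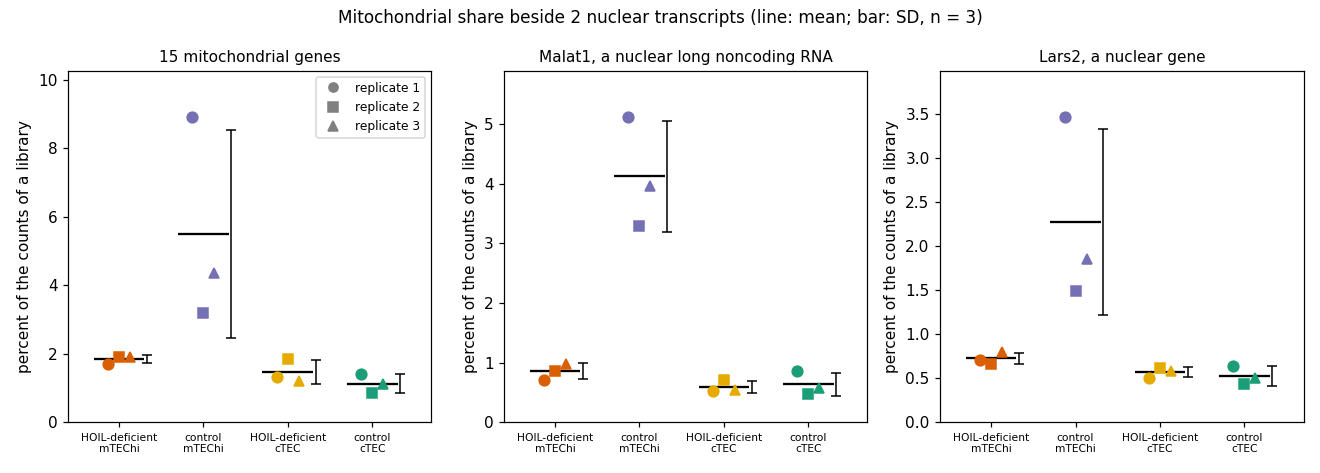
Share of library counts (y axis, percent) of the 15 mitochondrial genes, of Malat1 and of Lars2 in each library, with group mean and SD (n = 3). In all 3 panels control mTEChi stand above the other groups with replicate 1 highest; Lars2 takes 0.665 to 0.795% in HOIL-deficient mTEChi and 1.48 to 3.47% in control mTEChi.

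Among the nuclear genes that copy and transcribe mitochondrial DNA, few were called in mTEChi. Of 23 such genes, 2 were higher in HOIL-deficient mTEChi, 0 lower and 21 not called, with a median log2 fold change of 0.03 (11.3% of all genes were called higher). The 2 were Top1mt, the mitochondrial topoisomerase (0.89, edgeR adjusted p = 0.018), and Exog, a mitochondrial nuclease (0.89, adjusted p = 0.042). Polrmt, the mitochondrial RNA polymerase, had 9.98 ± 5.55 CPM in HOIL-deficient mTEChi and 13.8 ± 3.33 CPM in control mTEChi (adjusted p = 0.48). Tfam, which packages the genome and starts transcription, had 48.4 ± 4.78 CPM in HOIL-deficient mTEChi and 37.4 ± 4.12 CPM in control mTEChi (adjusted p = 0.17). Tfb2m, the polymerase's initiation partner, and Twnk, the replicative helicase, had log2 fold changes of 0.34 and -0.29 and did not pass (adjusted p = 0.39 and 0.61).

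Among 35 genes of mitochondrial RNA processing and turnover, 9 were higher and 1 lower in HOIL-deficient mTEChi, where 11.3% of all genes were called higher and 8.59% lower, with a median log2 fold change of 0.42 for the list. Lrpprc, which binds and stabilises mitochondrial messengers, had 42.8, 42.2 and 45.0 CPM in HOIL-deficient mTEChi against 25.2, 26.0 and 26.3 CPM in control mTEChi. It was thus higher where the messengers were lower (log2 fold change 0.68, SE 0.153, edgeR adjusted p = 0.0077), and its HOIL effect was above that in cTECs by 1.12 (adjusted p = 0.0076). Its partner Slirp had 25.3 ± 12.2 CPM in HOIL-deficient mTEChi and 39.4 ± 8.73 CPM in control mTEChi (adjusted p = 0.19). Hsd17b10, a subunit of the enzyme that cuts tRNA 5′ ends from the precursor, was higher by 0.70 (adjusted p = 0.0059), Mto1, a tRNA-modifying enzyme, by 0.92 (adjusted p = 0.0070) and Ptcd3, a protein of the small mitochondrial ribosomal subunit, by 0.91 (adjusted p = 0.0063).

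Of 82 mitochondrial ribosomal protein genes, 5 were higher and 6 lower in HOIL-deficient mTEChi, both shares being under those over all genes (11.3% higher and 8.59% lower), with a median log2 fold change of -0.03. Mrpl3, Mrps2 and Mrps27 were higher by 0.99, 0.95 and 1.11 (edgeR adjusted p = 0.0021, 0.0038 and 0.0058), and Mrps35 was lower (-0.69, adjusted p = 0.025). Of 31 tRNA synthetase and translation factor genes, 5 were higher and 1, Lars2, was lower, beside the same 11.3% and 8.59% of all genes. Hars2, for histidine, was higher by 0.96 (adjusted p = 0.0046), Tars2, for threonine, by 0.67 (adjusted p = 0.0088), and Gatc, of the glutamine-tRNA amidotransferase, by 0.99 (adjusted p = 0.0062).

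Nuclear genes for subunits of the same complexes were called in both directions. In HOIL-deficient against control mTEChi, 1 of 36 complex I genes was higher and 4 lower (median -0.46), 1 of 9 complex III genes higher and 3 lower (median -0.70), 0 of 11 complex IV genes higher and 4 lower (median -0.76), and 3 of 17 ATP synthase genes higher and 1 lower (median -0.41), where 11.3% of all genes were called higher and 8.59% lower. Beside mt-Cytb in complex III, the small subunits Uqcrh and Uqcrq changed by -1.19 and -1.18 (edgeR adjusted p = 0.0083 and 0.025) and the core protein Uqcrc2 by 0.67 (adjusted p = 0.0063). Beside mt-Co1 to mt-Co3 in complex IV, Cox8a, Cox6c and Cox4i1 changed by -1.13, -1.15 and -0.67 (adjusted p = 0.016, 0.031 and 0.037). In ATP synthase, the catalytic-head genes Atp5a1 and Atp5b were higher by 0.77 and 0.95 (adjusted p = 0.0028 and 0.0058), opposite in sign to mt-Atp6 and mt-Atp8. In complex I, Ndufa6 changed by -1.24 (adjusted p = 0.012) and Ndufa9 by 0.62 (adjusted p = 0.015).

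Over the alternatives, lower calls ranged from 0 to 12 for complex I, 1 to 5 for complex III, 0 to 9 for complex IV and 0 to 5 for ATP synthase genes. Uqcrq, Cox8a, Cox6c, Cox4i1, Ndufa6, Ndufa9, Top1mt, Exog and Mrps35 each lost the call without replicate 1 of control mTEChi and also without replicate 2 of HOIL-deficient mTEChi. Of 20 genes that mark mitochondrial mass or its regulators, 5 were higher and 1 lower, where 11.3% of all genes were called higher and 8.59% lower, and the median log2 fold change was 0.08. Among those higher were the chaperones Hspa9 (0.81, edgeR adjusted p = 0.0010) and Hspd1 (0.70, adjusted p = 0.0105), the outer-membrane channel Vdac3 (0.71, adjusted p = 0.0055) and the scaffold Phb2 (0.67, adjusted p = 0.0062). Hspa9 had 226 ± 22.6 CPM in HOIL-deficient mTEChi and 124 ± 15.5 CPM in control mTEChi, without overlap.

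In HOIL-deficient against control cTECs, 0 of the complex I, III, IV and ATP synthase genes were called, as with the mitochondrial genes. Over all genes, 6.06% were called higher and 6.02% lower. Lower were 3 of 23 mitochondrial DNA maintenance and transcription, 4 of 31 tRNA synthetase and translation factor and 1 of 4 complex II genes. Higher were 1 of 35 RNA processing, 1 of 82 mitochondrial ribosomal protein and 1 of 20 mitochondrial mass genes. Each of these lower and higher counts fell to 0 under some alternative. Between control mTEChi and control cTECs, 37.8% of all genes were called higher and 26.4% lower. Among the nuclear subunit genes, 21 of 36 complex I genes were higher and 2 lower, 5 of 9 complex III genes higher and 1 lower, 10 of 11 complex IV genes higher and 0 lower, and 10 of 17 ATP synthase genes higher and 1 lower. Cox4i1 was higher in control mTEChi by a log2 value of 1.88 (edgeR adjusted p = 5.1e-06). Of the genes of mitochondrial DNA maintenance and transcription 1 of 23 was higher and 10 were lower, and of those of RNA processing 4 of 35 were higher and 20 lower. Lrpprc changed by -1.29 (adjusted p = 7.6e-06) and Tfam by -0.90 (adjusted p = 0.00019).

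Markers of other cell types moved with some of these groups, and their part in the mitochondrial results was not tested. In HOIL-deficient against control mTEChi, 7 of 9 endothelial markers, 3 of 10 fibroblast and pericyte markers and 2 of 3 Schwann cell markers were higher and none was lower, where 11.3% of all genes were called higher and 8.59% lower. Of 8 adipocyte markers tested, 1 was higher. Endothelial markers summed to 238 to 593 CPM in HOIL-deficient mTEChi and 87.6 to 120 CPM in control mTEChi. Fibroblast and pericyte markers summed to 778 to 1029 CPM in HOIL-deficient mTEChi and 355 to 424 CPM in control mTEChi, and Schwann cell markers to 51.5 to 65.6 CPM in HOIL-deficient mTEChi and 13.1 to 14.3 CPM in control mTEChi. Thymocyte, muscle and macrophage and dendritic cell markers had 0 of 15, 0 of 8 and 0 of 7 genes called. Of 22 immediate early and dissociation stress genes, 1 was higher and 4 lower in HOIL-deficient mTEChi, against the same background, among them Jund (-1.26, edgeR adjusted p = 0.0010) and Fosb (-2.30, adjusted p = 0.0036).

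The cTEC groups, whose difference enters the comparison of the HOIL effects, also differed in such markers, and their part in that comparison was not tested. In HOIL-deficient against control cTECs, where 6.06% of all genes were called higher and 6.02% lower, 7 of 8 adipocyte, 8 of 9 endothelial, 5 of 10 fibroblast and pericyte and 3 of 3 Schwann cell markers were higher, and 12 of 15 thymocyte markers and 8 of 9 cTEC markers were lower. Adipocyte markers summed to 325 to 643 CPM in HOIL-deficient cTECs and 22.9 to 47.3 CPM in control cTECs, and endothelial markers to 119 to 397 CPM in HOIL-deficient cTECs and 35.1 to 66.1 CPM in control cTECs. Fibroblast and pericyte markers summed to 2757 to 3894 CPM in HOIL-deficient cTECs and 352 to 1466 CPM in control cTECs, and Schwann cell markers to 66.4 to 84.6 CPM in HOIL-deficient cTECs and 5.67 to 8.37 CPM in control cTECs. None of these sums overlapped between the groups. Thymocyte markers summed to 457 to 883 CPM in HOIL-deficient cTECs and 1096 to 3967 CPM in control cTECs, and cTEC markers to 18902 to 20163 CPM in HOIL-deficient cTECs and 37235 to 47321 CPM in control cTECs.

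Between control mTEChi and control cTECs, where all 15 mitochondrial genes were higher, markers of other cell types differed as well. Over all genes, 37.8% were called higher and 26.4% lower. Of the markers tested, 8 of 8 adipocyte, 6 of 8 muscle and 6 of 7 macrophage and dendritic cell genes were higher. So were 4 of 5 B and plasma cell, 2 of 3 Schwann cell and 5 of 9 endothelial genes. Of 10 fibroblast and pericyte genes 1 was higher and 4 were lower, and 15 of 15 thymocyte genes were lower. Adipocyte markers summed to 938 to 1992 CPM in control mTEChi and 22.9 to 47.3 CPM in control cTECs, and muscle markers to 192 to 221 CPM in control mTEChi and 8.56 to 20.3 CPM in control cTECs. Macrophage and dendritic cell markers summed to 705 to 1124 CPM in control mTEChi and 11.4 to 17.9 CPM in control cTECs, and B and plasma cell markers to 56.9 to 80.8 CPM in control mTEChi and 5.29 to 36.1 CPM in control cTECs. Thymocyte markers summed to 145 to 229 CPM in control mTEChi and 1096 to 3967 CPM in control cTECs. The part of these markers in the mitochondrial difference was not tested.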

How the data were processed

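The authors deposited raw counts of reads per Entrez gene and library with each gene's length; per the submitters' processing notes they used featureCounts on mm10, and no aligner, strand setting or rule for multiply matching reads is named in the sources used here. The deposited counts were tested with edgeR 4.0.16 (R 4.3.3) by the robust quasi-likelihood test, after filterByExpr (19398 genes) and TMM scaling, in 1 fit over the 4 groups, with Benjamini-Hochberg adjustment over all genes and a threshold of 0.05. Fold changes are log2; an SE is the size of the log2 fold change divided by the square root of F. CPM and RPKM were computed here from those counts, CPM on the library total. Shares were tested by exact permutation over every regrouping (Python 3.11.15). Alternatives used DESeq2 1.42.0, limma 3.58.1 voom, other scalings, filters and samples. The fit was tested on simulated counts.

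The members and lists were chosen with earlier results of these data known. Names come from RefSeq (25275 of 27179 identifiers matched, 1904 did not), mitochondrial coordinates and sequences from GENCODE M21 on GRCm38, compared with nuclear transcripts by blastn 2.17.0. Every mitochondrial gene is named; of each nuclear list, Polrmt, Tfam, Tfb2m, Twnk, Lrpprc and Slirp always, and per comparison from among the 4 called members with the smallest p; also Malat1 and Neat1. Intervals from counting were not needed: the smallest member count was 62. Mitochondrial tRNA genes are not analysed here.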

Additional observations from a re-analysis of the deposited data

Results flagged for a closer look

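The results below are those in which the effect of HOIL deficiency differed between mTEChi and cTECs by a test of the difference itself; each value is the log2 effect in mTEChi minus that in cTECs. In exact permutation tests, the share of counts differed by -1.82 for the 15 mitochondrial genes, by -1.78 for the 13 protein-coding genes and by -2.43 for the 2 rRNA genes (each p = 0.015). Within the mitochondrial counts, the rRNA share differed by -0.61 and the protein-coding share by 0.037 (each exact p = 0.02). With no tRNA rows these shares are complements of each other, so they give the same result.

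In the edgeR interaction test the rRNA genes differed by -2.80 for mt-Rnr1 and -2.74 for mt-Rnr2. The complex I genes differed by -1.82 for mt-Nd1, -2.30 for mt-Nd2, -1.65 for mt-Nd4l, -2.43 for mt-Nd4, -2.17 for mt-Nd5 and -2.83 for mt-Nd6. mt-Cytb differed by -1.94, mt-Co1 by -1.89, mt-Co2 by -1.72, mt-Co3 by -1.74, mt-Atp6 by -1.91 and mt-Atp8 by -1.91. mt-Atp8, mt-Co1, mt-Rnr1 and mt-Rnr2 lost the call most often when a library was left out, and no gene changed sign.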

How the results depend on the processing

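Of the 113 alternative counts of called mitochondrial genes, 104 stayed within 1.5 times the value reported; all 56 alternative values of the mitochondrial share kept their direction. Exact tests of 3 libraries against 3 cannot go below 0.1, so only the difference of HOIL effects could pass, and its p stayed between 0.01 and 0.035. For the difference of HOIL effects, 9 genes were called in male libraries alone and 8 to 14 with a library left out. Between HOIL-deficient mTEChi and HOIL-deficient cTECs, DESeq2 called 1, a fit on these libraries alone 4, a replicate block by the letter that column headers share between cell types, chosen after seeing the data, 2, and leaving out a library 0 to 2.

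With the replicate number as a block, 14 genes were called lower in HOIL-deficient mTEChi, 13 in the difference and 15 higher in control mTEChi. Correlations of same-numbered libraries were -0.16 to 0.098, and those of different-numbered libraries -0.076 to 0.16. The reported fit does not take the numbers as pairs. Between HOIL-deficient mTEChi and cTECs all 3 same-numbered values were positive, at 0.035 to 0.078. The different-numbered values there were -0.060 to 0.019. Between control mTEChi and control cTECs the same-numbered values were 0.00035, 0.098 and -0.037, and the different-numbered values -0.055 to 0.063. The block by the letter joins the same-numbered libraries in HOIL-deficient and in control cells.

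Some uncalled genes changed sign. In cTECs, leaving out a library gave -0.12 to 0.36 for mt-Nd1, -0.057 to 0.38 for mt-Nd2, -0.075 to 0.39 for mt-Co1, -0.97 to 0.10 for mt-Nd3, -0.17 to 0.26 for mt-Nd5 and -0.16 to 0.35 for mt-Nd6. Between HOIL-deficient mTEChi and cTECs it gave -0.063 to 0.42 for mt-Nd1, -0.26 to 0.15 for mt-Nd2 and -0.15 to 0.68 for mt-Nd3; male libraries alone gave -0.058 for mt-Nd1 and -0.31 for mt-Nd3.

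In the balance of mitochondrial counts by cell type, counts per kilobase gave -0.11 for complex I and 0.061 for complex IV, neither passing, and 0.0060 for complex III, with its sign changed. In male libraries alone, where 100 regroupings are possible, these no longer passed: 0.55 for rRNA, -0.032 for protein-coding, -0.14 for complex I and 0.0880 for complex IV by cell type, and -0.17 for complex I, 0.17 for complex III and 0.21 for ATP synthase by genotype. Leaving out a library gave, by cell type, 0.075 to 0.11 for complex IV and -0.038 to -0.022 for protein-coding, and, by genotype, 0.17 to 0.24 for ATP synthase, -0.18 to -0.14 for complex I, -0.64 to -0.49 for mt-Nd6, -0.12 to 0.077 for rRNA and -0.0025 to 0.013 for protein-coding. Among nuclear genes in HOIL-deficient against control mTEChi, lower calls over the alternatives ranged from 0 to 12 for complex I, 1 to 5 for complex III, 0 to 9 for complex IV, 0 to 5 for ATP synthase and 0 to 10 for mitochondrial ribosomal proteins, and higher calls from 5 to 10 for RNA processing; calls over all genes ranged from 1944 to 4863, against 3858 in the reported fit. Causes were not tested. Depth limits mt-Nd3 most, with as few as 62 counts.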
